A study of Sus scrofa with 6 samples.

Results

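Aminoacyl-tRNA synthetases are the enzymes that load each amino acid onto its transfer RNA. They were examined here in cells that the sample titles call immature Sertoli cells, treated in culture with a stable form of vitamin C. Sertoli cells are the nurse cells of the seminiferous tubule. The members were the genes of the deposited count matrix whose symbol names a synthetase (1 letter followed by ARS, ARS1 or ARS2, with FARSA, FARSB and EPRS1), together with AIMP1, AIMP2 and EEF1E1, the scaffold proteins that hold several of these enzymes in a complex. Of 40 symbols looked for, 38 had a row among the 17670 genes of the matrix. They comprised 17 cytosolic enzymes, 2 enzymes used in both compartments, 16 mitochondrial enzymes and 3 scaffold proteins. FARSB and the mitochondrial enzyme SARS2 had no row and were not analysed here. All 38 had enough counts to be tested, as did 12701 genes of the matrix.

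The cells were taken from fetal pig testes, 80 to 90 days into gestation, and were grown in serum-containing medium. One group received 250 µM L-ascorbic acid 2-phosphate (AA2P) after 6 h of culture, and the other was the control, with 3 libraries in each. The sources used here do not give how long AA2P was left on the cells or whether controls received a vehicle. The labels do not state whether replicate libraries stand for different animals or cultures. The p-values therefore describe the scatter of these samples, and that scatter may be technical.

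Every protein that a cell makes depends on these enzymes, 1 kind for each amino acid. Animal cells carry separate sets: a cytosolic set that serves the ribosomes of the cytosol, and a nuclear-encoded mitochondrial set that is imported to translate the few proteins encoded by mitochondrial DNA. GARS1 and KARS1, the glycine and lysine enzymes, each supply both compartments from 1 gene. Many of the cytosolic genes are known targets of ATF4, a transcription factor whose protein accumulates when amino acids run short or the endoplasmic reticulum is stressed. ATF4 also acts on genes for making and importing amino acids.

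Total counts per library lay between 18747307 and 23122000 with AA2P and between 19299585 and 23521291 in controls. Levels are given as CPM, read counts scaled to a common library size with TMM factors, which equalise the bulk of the genes between libraries. With scaling by library totals alone, the log2 fold changes shifted upward by 0.17 (median over the tested genes), and calls that depend on this choice are named below. Of the Sertoli cell markers looked for, 10 of 14 had a row, and GATA4, FSHR, CLDN11 and CST12 had none. Their summed level was 1137 to 1669 CPM with AA2P and 4129 to 4439 CPM in controls, most of it from CLU, and 4 of 6 tested markers fell and 1 rose. SOX9 was at 2.22 CPM with AA2P and 11.6 CPM in controls, a log2 fold change of -2.38. CLU, INHBB and WT1 had log2 fold changes of -1.7, -0.79 and -0.77. TF rose, at 2.91 CPM with AA2P and 0.238 CPM in controls. AMH did not pass, at 34.5 CPM with AA2P and 36.4 CPM in controls. INHA, DHH, KITLG and NR5A1 averaged at most 0.152 CPM in either group. The cell identity is taken from the sample titles, and these markers do not settle it. Of 5 markers of kidney or other epithelium 3 had a row (CDH16, EPCAM and CDH1). Their summed levels were 161.5 to 177 CPM with AA2P and 129 to 141 CPM in controls, and 2 rose and 1 fell. Leydig, macrophage and germ cell lists summed to at most 7.38 CPM in any library, with DAZL, PTPRC and CYP11A1 among those without a row. The endothelial marker with a row, PECAM1, was at 6.97 CPM with AA2P and 2.26 CPM in controls. The 5 peritubular and smooth muscle markers summed to 293 to 345 CPM with AA2P and 413 to 419.5 CPM in controls, mostly TAGLN, with ACTA2 and MYH11 at most at 0.251 CPM. Of 3 tested, DES and TAGLN fell and CNN1 rose, with log2 fold changes of -2.21, -0.29 and 0.97, though TAGLN did not pass with library totals. DES was at 8.35 CPM with AA2P and 39.1 CPM in controls. Over all tested genes 26.1% fell and 26.0% rose at the threshold used below. The part of these marker differences in the results below was not tested. In bulk RNA, fewer cells of a type and less RNA per cell cannot be told apart.

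Most cytosolic synthetases were lower with AA2P, while the mitochondrial ones went both ways by small amounts. At an adjusted p of 0.05 in edgeR's quasi-likelihood test 22 of the 38 members passed, 17 lower and 5 higher, beside 52.1% of all tested genes in either direction. Of the 17 cytosolic enzymes 13 fell and none rose, where 26.1% of all tested genes were called lower and 26.0% higher. Their median log2 fold change was -0.66, against 0.00 for all tested genes. Of the 16 mitochondrial enzymes 2 fell, 4 rose and 10 did not pass, with a median of 0.02. The AA2P libraries lay entirely below the controls in 14 cytosolic and 3 mitochondrial enzymes, beside 29.5% of all tested genes, and entirely above them in 0 cytosolic and 5 mitochondrial enzymes, beside 29.8%. In either direction the groups did not overlap in 27 of the 38 members and in 59.3% of all tested genes. A fall of at least 1.5-fold that passed the test was seen in 11 members, namely 10 cytosolic enzymes and GARS1, and in 7.97% of all tested genes. With library totals 7 members fell that far, 6 cytosolic enzymes and GARS1, as did 691 of all tested genes. None of the mitochondrial enzymes fell that far under either scaling, their TMM-scaled log2 fold changes lying between -0.30 and 0.43. The 17 cytosolic enzymes together took 0.345% to 0.390% of all counts in the AA2P libraries and 0.520% to 0.526% in the controls. The 16 mitochondrial enzymes took 0.0690% to 0.0700% of the counts with AA2P and 0.0597% to 0.0610% in controls. With library totals as the scaling, 12 cytosolic enzymes were called lower and 1 higher, and 0 mitochondrial enzymes lower and 9 higher, beside 14.3% and 45.1% of all genes.

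**Figure D1:**
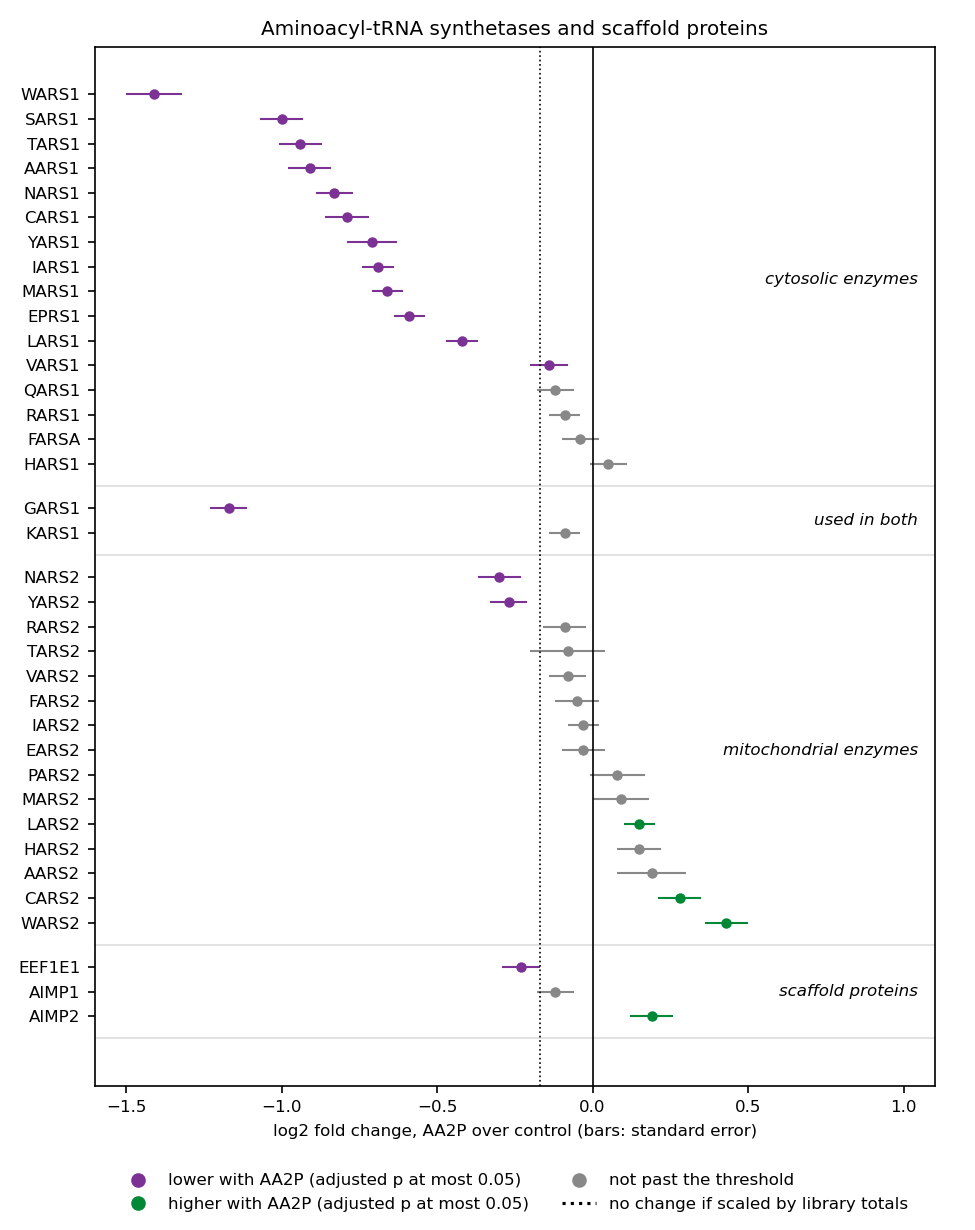
Log2 fold change of the members reported here, AA2P over control, with its standard error, by compartment. Most cytosolic enzymes lie left of 0, down to -1.41 for WARS1, while the mitochondrial enzymes lie between -0.30 and 0.43. The dotted line marks where no change would fall if libraries were scaled by their totals.

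The tryptophan enzyme WARS1 showed the largest change of the members. It stood at 162, 185 and 231 CPM in AA2P libraries 1 to 3, against 509, 516 and 509 CPM in control libraries 1 to 3. The highest AA2P library was thus well below the lowest control, and the controls lay within a few CPM of each other. The gene fell 2.65-fold, a log2 fold change of -1.41 with a standard error of 0.09 (edgeR adjusted p = 1.4e-09). WARS1 is also known as an interferon-induced gene in human cells. Of 9 tested interferon-related genes 4 rose with AA2P and 2 fell, beside 26.0% and 26.1% of all tested genes. Among those that rose were IFIT2 and OAS2, with log2 fold changes of 1.48 and 0.73. ISG15 fell by 0.66 and IRF1 by 0.33 on the log2 scale. ISG15 was low, at 1.82 CPM with AA2P and 2.90 CPM in controls, and did not pass with library totals (edgeR adjusted p = 0.0877).

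The serine, threonine and alanine enzymes each fell by close to 1 on the log2 scale. SARS1 was at 153, 146 and 186 CPM with AA2P and at 325, 326 and 323 CPM in controls, a log2 fold change of -1.0 with a standard error of 0.07 (edgeR adjusted p = 5.6e-09). TARS1 was at 207, 207 and 251 CPM with AA2P and at 416.5, 427.5 and 433 CPM in controls, and fell 1.92-fold. AARS1 was at 247, 269 and 309.5 CPM with AA2P and at 517, 517 and 514 CPM in controls, and fell 1.87-fold. In all 3 genes the groups were apart, and AA2P library 3 was the highest of its group.

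The asparagine and isoleucine enzymes fell by 0.83 and 0.69 on the log2 scale. NARS1 had 362, 329 and 379 CPM in the AA2P libraries and 621, 614 and 663 CPM in the controls, with a standard error of the log2 fold change of 0.06 (edgeR adjusted p = 3.9e-09). IARS1 had 394.5, 410.2 and 437 CPM in the AA2P libraries and 660.4, 676 and 673 CPM in the controls, and fell 1.62-fold. Neither gene had overlapping groups. CARS1 and YARS1, for cysteine and tyrosine, fell by 0.79 and 0.71 on the log2 scale.

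EPRS1 is a single protein with 2 activities, for glutamate and proline, and MARS1 supplies the methionine that starts proteins made in the cytosol. EPRS1 was at 471, 479 and 514 CPM with AA2P and at 725.5, 744 and 731 CPM in controls, a log2 fold change of -0.59 (edgeR adjusted p = 3.5e-08). MARS1 was at 148, 157 and 168 CPM with AA2P and at 252, 251 and 243 CPM in controls, a log2 fold change of -0.66 with a standard error of 0.05. The gene span of MARS1 in the RefSeq table of Sscrofa11.1 overlaps DDIT3 and ARHGAP9, and the labels do not say whether counting used the strand. Those partners were at 1.81 and 1.18 CPM with AA2P and at 2.53 and 3.20 CPM in controls.

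Among the smaller cytosolic changes that passed the test were those of LARS1 and VARS1, for leucine and valine. LARS1 fell by 0.42 on the log2 scale and passed in all 13 alternative fits. VARS1 fell by 0.14 with an edgeR adjusted p of 0.0478, and its call was lost in 8 alternatives, among them each fit without 1 control library and those without AA2P library 1 or AA2P library 2. With library totals its log2 fold change was 0.03 (edgeR adjusted p = 0.650), the highest adjusted p over the alternatives, and the lowest was 0.00312.

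4 cytosolic enzymes did not pass. The phenylalanine subunit FARSA was at 82.3, 85.9 and 94.2 CPM with AA2P and at 93.6, 87.0 and 89.6 CPM in controls, with overlapping groups and a log2 fold change of -0.04 (edgeR adjusted p = 0.579). QARS1, RARS1 and HARS1, for glutamine, arginine and histidine, had log2 fold changes of -0.12, -0.09 and 0.05. With library totals HARS1 was called higher, at 0.21. QARS1 was called lower when AA2P library 2 was left out, at -0.18.

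The pair of enzymes that serve both compartments differed from each other. GARS1 was at 304, 329 and 376 CPM in the AA2P libraries and at 749, 771 and 748 CPM in the controls. It fell 2.25-fold, a log2 fold change of -1.17 with a standard error of 0.06, and had the smallest adjusted p of the members, 3.1e-10 in edgeR. KARS1 was at 476, 495 and 482 CPM in the AA2P libraries and at 509, 536 and 507 CPM in the controls. Its AA2P libraries were all below its controls, but by less than the test required, the log2 fold change being -0.09, with a standard error of 0.05 (edgeR adjusted p = 0.104).

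**Figure D2:**
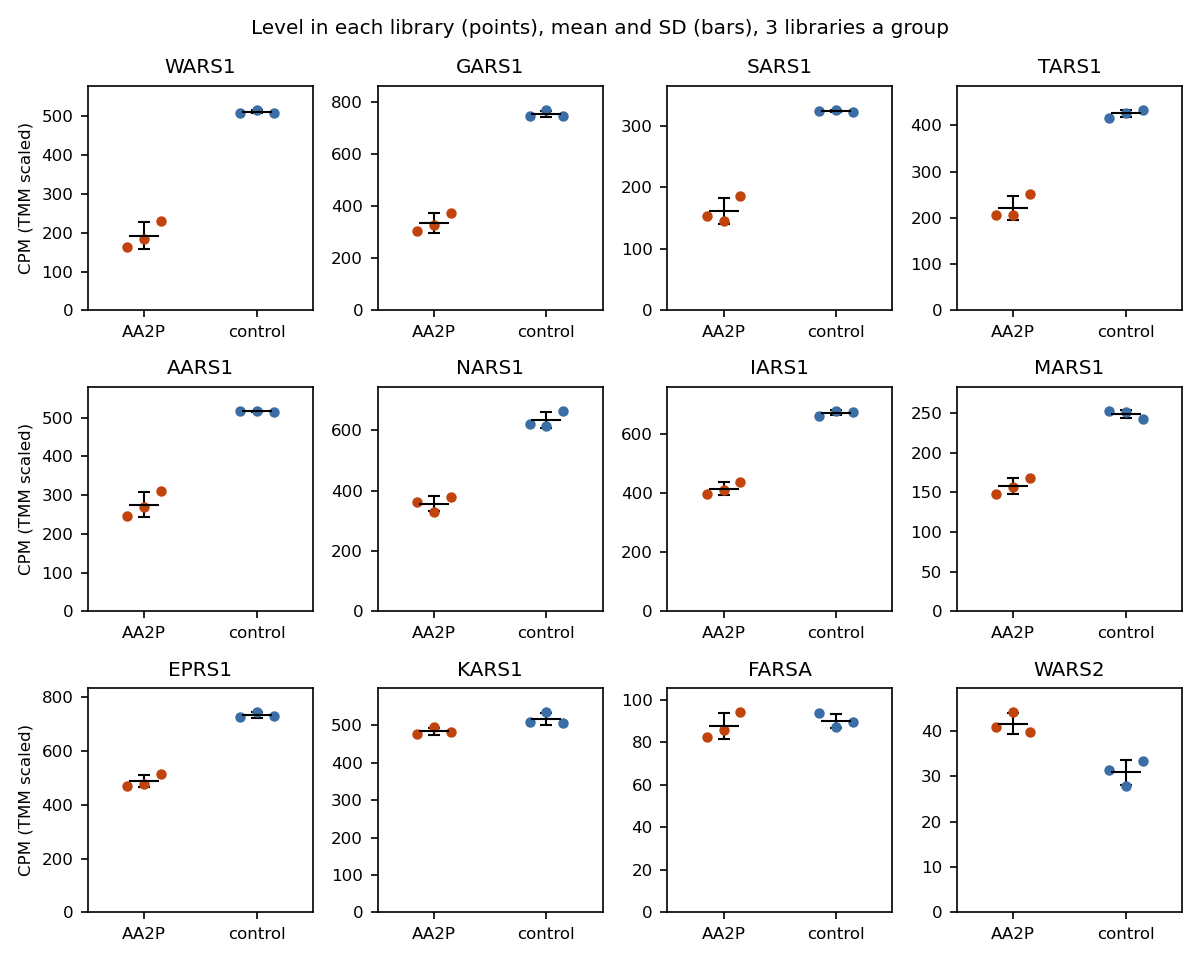
Level of 12 members in each library, in TMM-scaled CPM, with the mean and SD of 3 libraries a group and libraries 1 to 3 from left to right. AA2P libraries of WARS1 lie between 162 and 231 CPM and its controls near 509 to 516 CPM, whereas FARSA overlaps between the groups and WARS2 is higher with AA2P.

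Most of the cytosolic enzymes that fell were on a list of ATF4 targets. That list, taken from general knowledge of mammalian cells but drawn up with earlier results of these data known, holds the enzymes for alanine, cysteine, glycine, isoleucine, leucine, methionine, asparagine, serine, threonine, valine, tryptophan and tyrosine, and EPRS1. All 13 of them fell, VARS1 by the margin given above, with log2 fold changes from -1.41 to -0.14 and a median of -0.79. Of the other 6 enzymes that serve the cytosol, 1 fell and 5 did not pass, with a median of -0.09. The summed level of the 13 was 3131 to 3656 CPM with AA2P and 5804.5 to 5877 CPM in controls. The summed level of the 6 was 888 to 926 CPM with AA2P and 955 to 999.6 CPM in controls. This difference between the subsets is a description, and no test was run on it.

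The enzymes were also divided by complex membership and by class. Of 8 enzymes that sit in the multi-synthetase complex 5 fell, with a median log2 fold change of -0.39, and of 11 that work outside it 9 fell, with a median of -0.83. The synthetases fall into classes I and II, which have unrelated catalytic folds. Of 9 class I enzymes that serve the cytosol 7 fell and of 9 class II enzymes 6 fell, with medians of -0.66 and -0.83, and EPRS1 carries 1 of each.

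Among the mitochondrial enzymes the largest change was that of WARS2, the partner of WARS1 for tryptophan, and it went the other way. WARS2 was at 40.85, 44.2 and 39.7 CPM with AA2P and at 31.3, 27.9 and 33.4 CPM in controls. It rose 1.34-fold, a log2 fold change of 0.43 with a standard error of 0.07 (edgeR adjusted p = 1.4e-04), and its groups did not overlap. Its RefSeq span overlaps HAO2, a peroxisomal hydroxyacid oxidase, which was at 5.36 CPM with AA2P and 2.48 CPM in controls.

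CARS2 and LARS2, the mitochondrial enzymes for cysteine and leucine, also rose, by smaller amounts. CARS2 was at 34.0, 38.4 and 35.95 CPM with AA2P and at 29.7, 32.2 and 27.5 CPM in controls (edgeR adjusted p = 0.00456). LARS2 was at 102, 104 and 110.3 CPM with AA2P and at 95.55, 95.1 and 94.3 CPM in controls (edgeR adjusted p = 0.0186). The groups were apart in both, with log2 fold changes of 0.28 and 0.15. The call of LARS2 was lost without any 1 of the controls. In all, 2 mitochondrial enzymes were called higher without control library 2, and likewise without control library 3.

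NARS2 and YARS2, for asparagine and tyrosine, were the mitochondrial enzymes that fell. NARS2 was at 29.8, 29.6 and 30.4 CPM with AA2P and at 35.9, 35.8 and 39.1 CPM in controls, a log2 fold change of -0.30 with a standard error of 0.07 (edgeR adjusted p = 9.6e-04). YARS2 was at 47.3, 46.0 and 44.3 CPM with AA2P and at 52.6, 54.0 and 58.9 CPM in controls, a log2 fold change of -0.27 with a standard error of 0.06. Neither overlapped between groups, but with library totals neither passed, at -0.13 and -0.10. The span of YARS2 overlaps DNM1L, which had no row.

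The other 10 mitochondrial enzymes did not pass, with log2 fold changes from -0.09 (RARS2) to 0.19 (AARS2). EARS2, for glutamate, had the largest p, at 35.05, 37.4 and 41.3 CPM with AA2P and 39.3, 38.7 and 38.2 CPM in controls. TARS2 had the fewest counts of the members, 115 at the lowest, and a standard error of 0.12. Its span overlaps ECM1, a matrix protein gene that fell by 2.38 on the log2 scale. IARS2 was at -0.03, and with library totals it was called higher at 0.14. AARS2, HARS2, MARS2 and PARS2 were also called higher with library totals, by 0.24 to 0.36 on the log2 scale. AARS2 was also called higher without AA2P library 1, at 0.29, and HARS2 without AA2P library 3, at 0.18. HARS1 and HARS2 are alike in sequence, so their reads may be uncertain. Of 37 members matched in the RefSeq table of Sscrofa11.1, 7 overlap another protein-coding gene, among them EARS2, with UBFD1 at 88.5 CPM with AA2P and 99.0 CPM in controls, and IARS2, with RAB3GAP2 at 182.5 CPM with AA2P and 205.5 CPM in controls.

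The scaffold proteins did not move together. EEF1E1 was at 34.15, 33.4 and 34.8 CPM with AA2P and at 40.5, 37.5 and 42.0 CPM in controls, and fell by 0.23 (edgeR adjusted p = 0.00684), though not with library totals (-0.06). AIMP1 was at 72.35, 70.7 and 65.9 CPM with AA2P and at 73.5, 76.2 and 77.2 CPM in controls, and did not pass (edgeR adjusted p = 0.0835). Without AA2P library 1 it was called lower, at -0.15. AIMP2, the core scaffold, was at 41.6, 43.8 and 48.1 CPM with AA2P and at 40.2, 38.5 and 38.7 CPM in controls, and rose by 0.19 on the log2 scale (edgeR adjusted p = 0.0268). That call was lost without AA2P library 2, AA2P library 3, control library 2 or control library 3 and in DESeq2, and over the 13 alternatives its adjusted p lay between 1.9e-04 and 0.109. AIMP2 overlaps EIF2AK1 in the RefSeq table, which was at 67.1 CPM with AA2P and 67.8 CPM in controls.

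Cytosolic and mitochondrial enzymes for the same amino acid were then set against each other within each library, a ratio that does not depend on how libraries are scaled. It is a ratio of read counts, not of molecules, since the genes differ in length. Of 16 pairs, in which EPRS1 stands against both EARS2 and PARS2, the ratio was lower in all 3 AA2P libraries than in all 3 controls in 12, higher in none and overlapping in 4. Single genes had groups that did not overlap in 59.3% of all tested genes, with AA2P below in 29.5%. No such share was computed for ratios of 2 genes, so how unusual this count is cannot be judged. The median difference of the log2 ratios, AA2P minus control, was -0.59. An exact two-sided permutation test with 3 libraries against 3 cannot go below p = 0.10, and each of the 12 pairs reached that value, or 0.133 after Benjamini-Hochberg adjustment over the 16 pairs.

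The widest shift was for tryptophan. There were 3.97, 4.18 and 5.82 counts of WARS1 for each count of WARS2 in AA2P libraries 1 to 3, and 16.25, 18.5 and 15.2 in the controls, so that the log2 ratio differed by -1.86. The log2 ratio of AARS1 to AARS2 was 3.72 ± 0.07 with AA2P and 4.82 ± 0.22 in controls (SD, n = 3 each), and that of CARS1 to CARS2 was 1.52 ± 0.14 with AA2P and 2.60 ± 0.12 in controls. These differences exceeded the spread within either group. For asparagine both genes fell, and the ratio still differed by -0.53.

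The overlapping pairs were those for histidine, valine, arginine and phenylalanine. The log2 ratio of RARS1 to RARS2 was 2.00 ± 0.07 with AA2P and 2.00 ± 0.10 in controls, and that of FARSA to FARS2 was 1.52 ± 0.09 with AA2P and 1.51 ± 0.06 in controls (SD, n = 3 each). The pairs for histidine and valine differed by -0.10 and -0.06. Except for VARS1, the cytosolic members of these pairs had not passed the test on their own.

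**Figure D3:**
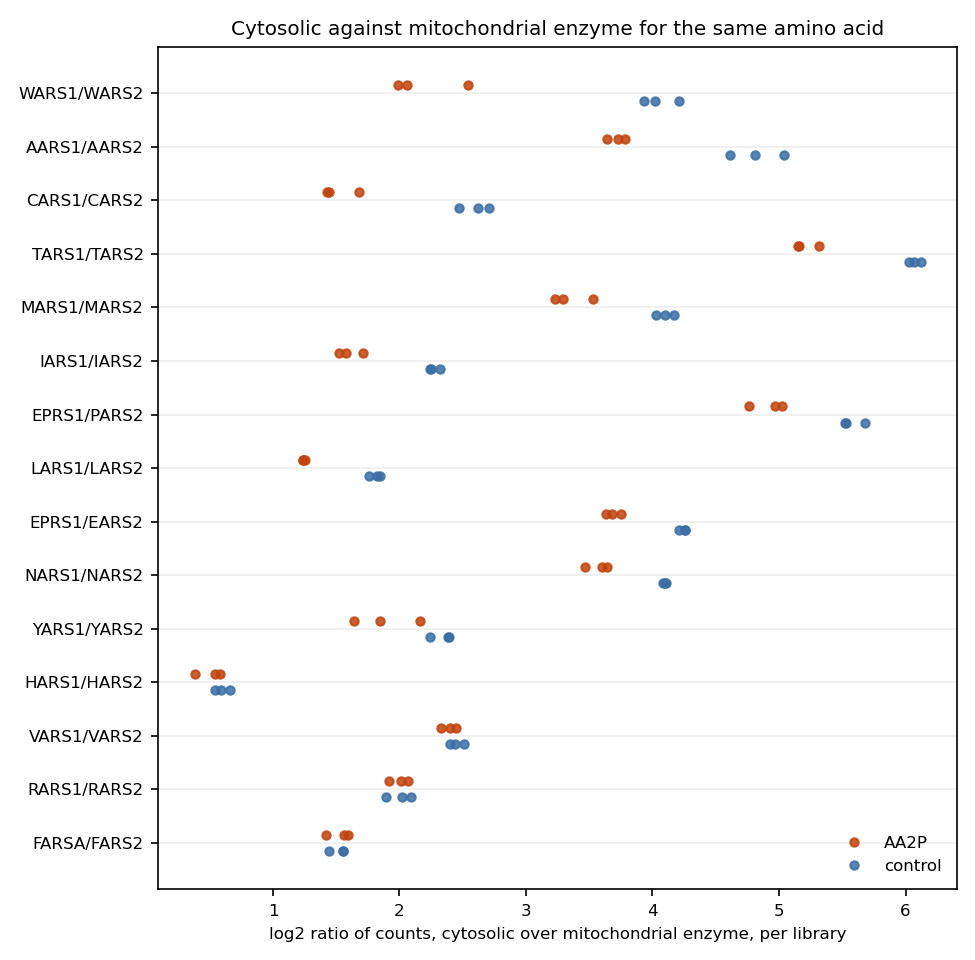
Log2 ratio of the counts of the cytosolic to the mitochondrial enzyme for each amino acid, 1 point per library, with AA2P above control in each row. The groups are apart in the upper rows, widest for WARS1 over WARS2, and overlap in the lowest 4. The plot leaves out 1 of the pairs counted.

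Other genes of the pathway, and of the machinery that uses charged tRNA, were counted by list. Each count below stands beside 26.1% of all tested genes called lower and 26.0% higher. With library totals these shares were 14.3% and 45.1%. Of 21 tested genes of the ATF4 pathway 19 were called lower and none higher, with a median log2 fold change of -0.97. VLDLR, a lipoprotein receptor, TRIB3, an inhibitor of ATF4, DDIT4, an inhibitor of mTORC1, and CEBPG, a dimer partner of ATF4, had the smallest p-values, with log2 fold changes of -1.27, -2.31, -1.96 and -0.94. XPOT, the exporter that carries tRNA out of the nucleus, fell by 0.64 on the log2 scale, to 18.6 ± 1.59 CPM with AA2P against 29.1 ± 1.82 CPM in controls (SD, n = 3 each). PPP1R15A and DDIT3 did not pass, and ATF4 itself had no row and was not analysed here. Of the 7 eIF2 kinase genes and regulators, which act upstream of ATF4 translation, EIF2AK2 rose by 0.23, IMPACT fell by 0.34 and 5 did not pass.

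Of 16 tested genes of amino acid synthesis 13 were called lower and none higher, with a median of -0.91. Some make the substrate of a synthetase that also fell. CTH, which makes cysteine, was at 36.7 ± 4.71 CPM with AA2P and 152 ± 5.23 CPM in controls (SD, n = 3 each), beside CARS1 at 104 ± 11.8 CPM with AA2P and 180 ± 2.25 CPM in controls. ASNS, which makes asparagine, fell by 1.87 on the log2 scale, beside -0.83 for NARS1. PSAT1, of serine synthesis, fell by 1.22, beside -1.0 for SARS1, and the folate enzyme ALDH1L2 also fell by 1.22. PHGDH, the first enzyme of serine synthesis, fell by 0.73. ALDH18A1, of proline synthesis, fell by 0.36, beside -0.59 for EPRS1. Differences between a synthesis gene and its synthetase were not tested.

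With TMM scaling, genes of tRNA export and processing were called lower about as often as all tested genes, and seldom called higher. The called genes of cytosolic translation went both ways. Of 42 tested genes of tRNA export and processing, XPOT included, 1 rose, 12 fell and 29 did not pass, with a median of -0.03. Of all tested genes 26.0% rose and 26.1% fell. POP1, a subunit of RNase P, TSEN15, of the tRNA splicing endonuclease, and PRORP, the mitochondrial RNase P nuclease, fell by 0.81, 0.51 and 0.34 on the log2 scale. With library totals 16 of the 42 were called higher and 4 lower, with a median of 0.13. Of 28 cytosolic initiation factors 6 rose, 11 fell and 11 did not pass, with a median of -0.08, and the eIF2 beta subunit gene EIF2S2 fell by 0.57. With library totals 12 of the 28 were called higher and 4 lower, with a median of 0.09. Of 6 tested cytosolic elongation factors 3 rose, 2 fell and 1 did not pass, with a median of 0.09. EEFSEC, the selenocysteine elongation factor, rose by 0.45, and EEF2, the translocase, fell by 0.20. With library totals 4 of the 6 were called higher and none lower.

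The mitochondrial translation apparatus was counted in the same way. Of 62 tested mitochondrial ribosomal protein genes 10 rose, 5 fell and 47 did not pass, with a median of 0.02. Of all tested genes 26.0% rose and 26.1% fell. With library totals 33 of the 62 were called higher and 1 lower, with a median of 0.19. Under that scaling 45.1% of all tested genes were called higher and 14.3% lower, with a median of 0.17. Of 11 mitochondrial translation factors 2 rose, 2 fell and 7 did not pass, with a median of 0.01, and with library totals 7 were called higher and none lower. GFM1, an elongation factor, rose by 0.43 on the log2 scale, and MTRF1, a release factor, by 0.40. Mitochondria have no separate glutamine enzyme and convert glutamate that is already on the tRNA, using an amidotransferase. Its catalytic subunit QRSL1 was at 59.85 ± 1.85 CPM with AA2P and 42.9 ± 1.29 CPM in controls (SD, n = 3 each), a rise of 0.48 on the log2 scale (edgeR adjusted p = 2.9e-06). GATC was near 1 CPM in either group and did not pass, and GATB had no row. MTFMT, which formylates the initiator methionine, fell by 0.81 at 1.26 CPM with AA2P and 2.20 CPM in controls.

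**Figure D4:**
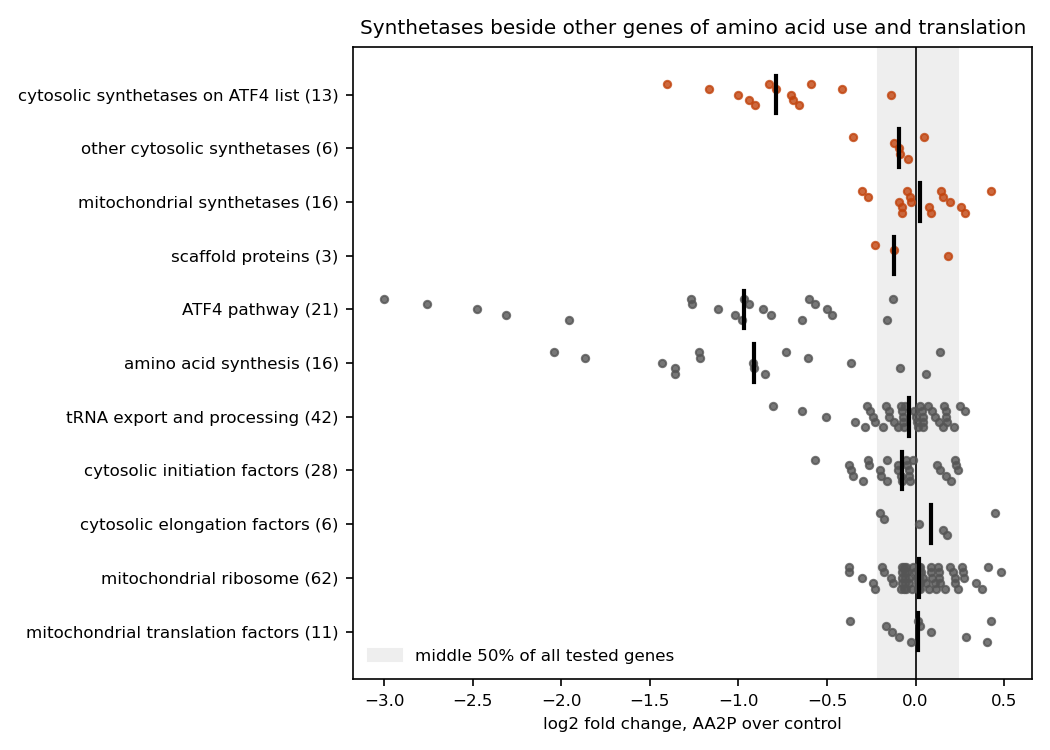
Log2 fold changes, AA2P over control, of the synthetases by subset (orange) and of other gene lists (grey), 1 point per tested gene, with the number of genes in brackets, the median as a bar and the middle 50% of all tested genes shaded (-0.21 to 0.24). The 13 synthetases on the ATF4 list have a median of -0.79, the ATF4 pathway -0.97, amino acid synthesis -0.91 and the mitochondrial synthetases 0.02. The lists were drawn up with earlier results of these data known, and differences between them were not tested.

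The size of the fall differed between AA2P libraries. The median log2 difference of the 17 cytosolic enzymes from their control means was -0.75, -0.66 and -0.51 in AA2P libraries 1, 2 and 3, against -0.01, 0.01 and 0.00 in the controls. AA2P library 3 was nearest to the control mean in 13 of the 14 cytosolic or shared enzymes that fell, and in 53.4% of all genes called lower. The same medians for the mitochondrial enzymes were -0.01, 0.03 and 0.06 in AA2P libraries 1, 2 and 3. Without AA2P library 3 the median log2 fold change of the cytosolic enzymes was -0.70.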

How the data were processed

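RNA from 3 AA2P and 3 control samples was sequenced on a HiSeq X-Ten, per the labels' protocols. HISAT2 2.0.5 and bcl2fastq are named in the submitters' processing notes. The counting tool, its strand setting, the annotation and the build are not given in the sources used here. Per the file headers, the authors deposited raw whole-number counts of reads per gene. Symbols came from a gene name table (13141 of 17670 identifiers matched).

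All 12701 genes passing filterByExpr were fitted together in edgeR 4.0.16 (R 4.3.3): TMM factors, the group alone as model, quasi-likelihood F test, Benjamini-Hochberg adjustment, threshold 0.05. Fold changes set AA2P over control, and each standard error divides the size of the log2 fold change by the square root of the F statistic. Pair ratios added 0.5 to each count. The procedure was also run on simulated data in which few genes changed, up or down at random. That run does not bear on the choice of scaling. The limit that a count of 0 allows, 3 counts, equals 0.123 to 0.165 CPM, for counting error only. Replicates differed by more than sampling noise (chi-square per degree of freedom 2.69 to 12.2).

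Members and lists were chosen with earlier results of these data known. Full values were given for the 8 cytosolic and 6 mitochondrial members with the smallest p, the largest p in each compartment, shared enzymes, scaffold proteins and WARS1. Up to 4 called genes a list were named by p. Others named (among them DDIT3, PPP1R15A, ISG15 and the overlapping genes) were chosen after their values were seen. Counts cover all members and listed genes, but some genes among them are not reported singly here. TARS3, outside the naming rule, had 1 count over the 6 libraries.

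Alternatives were DESeq2 1.42.0 size factors and Wald test, library totals, limma-voom 3.58.1, no filter, 1 CPM in 3 libraries, a replicate block, each library left out and a threshold of 0.01.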

Additional observations from a re-analysis of the deposited data

How the results depend on the processing

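Of the 22 members called, 15 kept their direction and call in all 13 alternative fits, including 13 of the 14 cytosolic or shared enzymes, VARS1 being the exception. Library totals moved most: 5727 genes were higher and 1822 lower, the cytosolic median was -0.49 and the mitochondrial median 0.19, and 1 cytosolic and 9 mitochondrial enzymes were called higher and 0 mitochondrial enzymes and 0 scaffold proteins lower. VARS1 changed sign to 0.03 and lost its call, and IARS2 changed sign to 0.14 and gained one. Other members called under neither scaling also changed sign, among them KARS1, QARS1 and RARS1, to 0.08, 0.05 and 0.08. The median over all tested genes moved up by 0.17 with this scaling. At a threshold of 0.01, 2 mitochondrial enzymes and 0 scaffold proteins were higher, and in DESeq2 0 scaffold proteins were higher. With each library left out in turn, 12 to 13 cytosolic enzymes were lower, 2 to 5 mitochondrial enzymes higher, 0 to 1 scaffold proteins higher and 1 to 2 lower, and 12 to 13 pairs had ratios below the controls. The cause of these changes was not tested. Medians under settings other than the scalings were added after seeing the data.

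Same-numbered libraries did not deviate together (correlations of -0.039, -0.017 and -0.055), so the numbers were not taken to pair them. With the replicate number as a block, 3094 genes were higher and 3110 lower, and 12 cytosolic enzymes lower, VARS1 losing its call (adjusted p = 0.0669).

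Reads limit the lowest members most: TARS2, with 115 to 153 counts a library, had a standard error of 0.12, against 0.05 to 0.11 elsewhere among the members.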
